A study of Rattus norvegicus with 2 samples.

Results

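CircRNAs made from genes of the ubiquitin pathway were compared between the lung of LPS-treated rats and the lung of Sham rats. The host genes were chosen by symbol, from families of ubiquitin ligases, conjugating enzymes, adaptors and deubiquitinases (Ube, Ubr, Uba, Herc, Nedd4, Trim, Rnf, Cul, Fbx, Klhl, Usp, Otud, Cbl and others). The choice gave 148 circRNAs from 88 host genes, of 4734 circRNAs and 2427 protein-coding host genes in all. The study divided 12 SD rats between the groups, and the labels give neither a genotype nor an age. Sham rats received PBS and LPS rats received lipopolysaccharide, the outer-membrane component of Gram-negative bacteria, at 2 mg/kg as an intratracheal spray, and lungs were taken at 24 h. Each group has 1 library, and the sources used here do not say how many rats went into it. Differences between the libraries therefore have no replicate check, and no p-value is given.

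Ubiquitin is a small protein that is joined to other proteins to mark them for the proteasome, for transport to the lysosome or for a change in signalling. An E1 enzyme activates it, an E2 enzyme carries it, and an E3 ligase selects the target. HECT ligases take ubiquitin onto themselves before they pass it on, RING ligases hold the E2 next to the target, and cullin-RING ligases do so through exchangeable adaptors such as the F-box and Kelch-like proteins. Deubiquitinases remove the mark. In the lung the pathway is known for setting the strength of inflammatory signalling and the amount of epithelial sodium channel at the cell surface. A circRNA is formed when a splice donor joins an upstream acceptor, and the read across that back-splice junction is what was counted. CircRNA levels do not give the level of the host's mRNA or protein.

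The deposited values are headed TPM but are junction reads scaled to one total in each library (CPM), with no term for length. Depth was 38112 junction reads for Sham, where a single read is worth 26.2 CPM, and 52505 for LPS, where it is worth 19.0 CPM. No circRNA was listed with 1 read. Absence is written as 0.001 and covers 0 or 1 read, which allows up to 4.74 reads, or 124 CPM in Sham and 90.4 CPM in LPS. Where 1 library was at this value the fold is given as a lower limit from that allowance, with a larger allowance where a host had several absent junctions. The other library enters at its counted value, so these limits leave out its counting error and can be too high. Intervals are exact 95% intervals and take in the counting of reads alone, and because no molecular identifiers were used, PCR copies of 1 molecule can be counted more than once. Log2 changes of a gene or circRNA are LPS over Sham after adding 0.5 reads, and a change of at least 2-fold on that scale was called higher or lower. Of 8 lung marker genes checked (Sftpc, Sftpb, Sftpa1, Ager, Scgb1a1, Pecam1, Cdh5 and Marco), only Sftpc was listed as a host, with 5 reads in Sham and none in LPS, so circRNAs carry little information on the tissue label. In bulk lung, fewer cells of a type and less circRNA per cell cannot be told apart.

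Summed over the pathway, circRNA output was of similar size in the libraries. The members held 1277 reads in the Sham lung, which is 3.35% of all junction reads (3.17 to 3.54), and 1645 reads in the LPS lung, which is 3.13% (2.99 to 3.29). The ratio LPS over Sham was 0.935, with an interval of 0.869 to 1.01 that includes no change. The direction of this sum depends on the scale. The log2 ratio was -0.10 on the CPM scale, 0.37 when the 1757 circRNAs seen in both libraries were centred on no change, and -0.54 when only the 323 of them with at least 50 reads were centred. The median log2 ratios subtracted for these scales were -0.46 and 0.44. A circRNA with equal reads in both libraries also has a log2 ratio of -0.46, from the difference in depth. The scale with all shared circRNAs centred therefore amounts to comparing reads with no correction for depth.

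Single host genes differed both ways. In the LPS lung 26 of the 88 hosts (29.5%) were called higher, where the share over all 2427 hosts was 30.8%. A further 34 (38.6%) were lower, against 38.2% of all hosts, and 28 changed by less than 2-fold. The median log2 change was -0.41 over the members and -0.33 over all hosts. Among the 42 member hosts with 10 or more reads in all, 12 (28.6%) were higher and 12 (28.6%) lower, against 24.5% and 26.8% of all 1164 such hosts. These shares lie near those of the whole table. By single junction, 54 of the 148 circRNAs (36.5%) were higher, against 35.7% of all circRNAs, and 62 (41.9%) lower, against 43.3%. With at least 10 reads, 19 of 52 (36.5%) were higher, against 29.1%, and 16 (30.8%) lower, against 29.6%. The other 46 hosts had fewer than 10 reads each, and their values show little beyond presence.

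**Figure D1:**
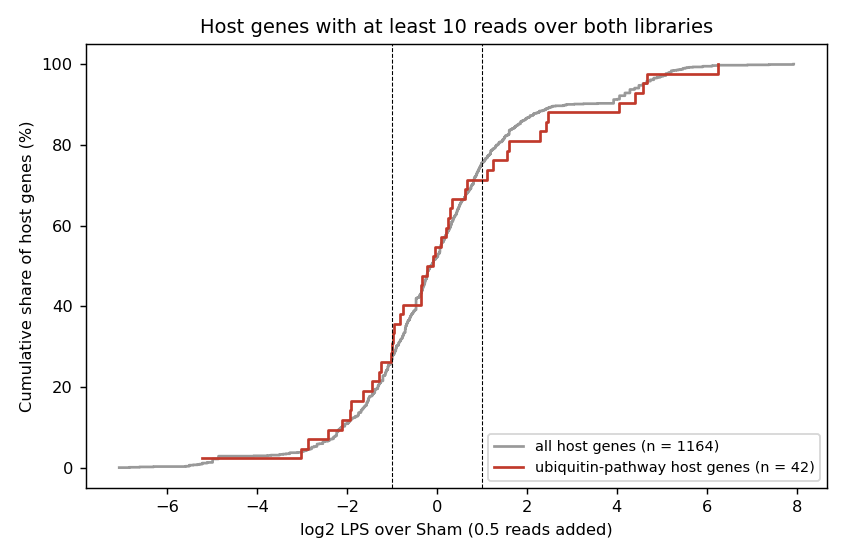
Cumulative share of host genes (y axis) by log2 change, LPS over Sham after adding 0.5 reads (x axis), for the ubiquitin-pathway hosts and for all protein-coding hosts with 10 or more reads in all. The median was -0.15 for the 42 pathway hosts and -0.14 for all 1164 hosts.

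The classes of the pathway differed in direction. Summed by class, cullin-RING hosts and E2 enzymes were lower in the LPS lung and RING ligases higher, on all 3 scales. For E2 enzymes this direction turned on 1 of the scales without Ube2h, and for RING ligases without Rnf169. No other E2 host called lower was left out in this way. HECT ligases and deubiquitinases changed sign with the scale.

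**Figure D2:**
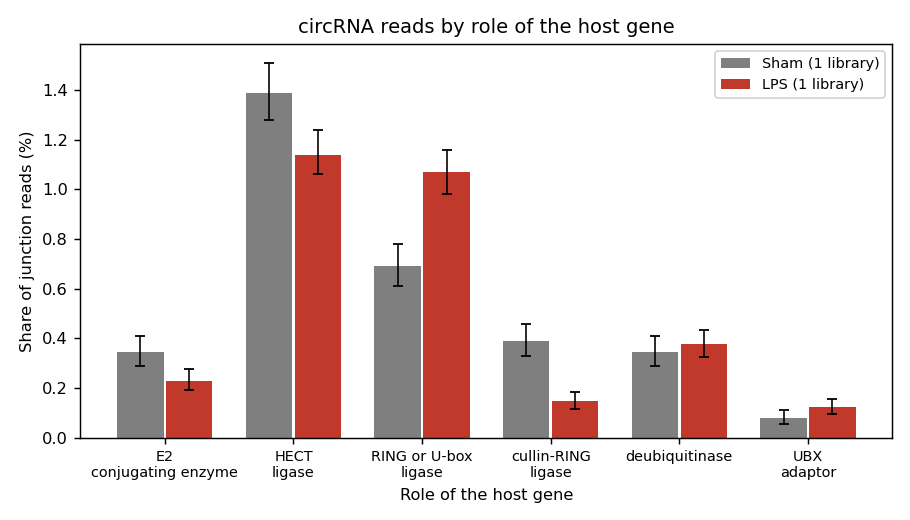
Share of all junction reads (y axis, percent, from 0) held by each class of host gene in the Sham and the LPS library, with exact 95% intervals for counting error and 1 library per bar. RING or U-box hosts went from 0.690% to 1.07% and cullin-RING hosts from 0.388% to 0.149%.

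The entry point of the pathway was barely represented. Uba1, the main ubiquitin-activating E1 enzyme, had 1 circRNA with 2 reads in the Sham lung and none in the LPS lung. This difference was not detectable at this depth.

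E2 conjugating enzymes were lower as a class in the LPS lung, with 132 reads in Sham and 121 in LPS, a ratio of 0.665 (0.516 to 0.858) and a log2 ratio of -0.59. Of 9 hosts, 2 were called higher and 5 lower, and over all hosts these shares were 30.8% and 38.2%. Single enzymes stood on opposite sides. Ube2h, an E2 that works with the CTLH ligase, gave 39 reads in Sham, 1023 CPM (728 to 1399), and 7 reads in LPS, 133 CPM (53.6 to 275), and was thus 7.68-fold lower (3.39 to 20.3). Both of its circRNAs were lower, with 22 against 2 reads and 17 against 5 reads. Ube2q2 gave 26 reads in Sham, 682 CPM (446 to 999), and 9 in LPS, 171 CPM (78.4 to 325), which is 3.98-fold lower (1.81 to 9.65). Ube2j2, an E2 anchored in the endoplasmic reticulum where it serves the removal of misfolded proteins, was higher in LPS. It had 2 reads in Sham, 52.5 CPM (6.36 to 189.6), and 18 reads in LPS, 343 CPM (203 to 542), a ratio of 6.53 (1.56 to 58.1).

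Ube2k, which builds ubiquitin chains that lead to the proteasome, was the E2 host with the most reads and stayed within 2-fold. It gave 42 reads in Sham, 1102 CPM (794 to 1489), and 71 in LPS, 1352 CPM (1056 to 1705), with a ratio of 1.23 (0.826 to 1.84). Without Ube2k the E2 ratio was 0.403 (0.280 to 0.576), and without Ube2h it was 0.890 (0.671 to 1.18). With Ube2h left out the interval includes no change, and the log2 ratio of -0.17 turned to 0.29 with all shared circRNAs centred. Ube2v2, the inactive partner subunit of a chain-building E2, had 12 and 13 reads. Ube2j1, Ube2e3 and Ube2d2 were listed in Sham only, with 5, 4 and 2 reads, and Ube2g1 in LPS only, with 3.

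HECT ligases held the largest share of the pathway's circRNA reads. The 17 hosts held 530 reads in Sham, 1.39% of the library (1.28 to 1.51), and 601 reads in LPS, 1.14% (1.06 to 1.24). The ratio was 0.823 (0.731 to 0.927). The log2 ratio was -0.28 on the CPM scale, 0.18 with all shared circRNAs centred and -0.73 with those of at least 50 reads centred, so its direction is not settled by these scales. Of the 17 hosts, 4 were called higher and 5 lower, beside 30.8% and 38.2% over all hosts. The share and ratio of this class include hosts not reported singly. They were not recomputed without its most-read host, so how far they rest on a single host is not given.

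Among the HECT hosts, Ube3a, the ligase lost in Angelman syndrome, gave 23 reads in Sham, 603 CPM (383 to 905), and 7 in LPS, 133 CPM (53.6 to 275). They come from 1 circRNA on chromosome 1 between 116604549 and 116610544, a 4.53-fold lower value (1.88 to 12.5). Herc1, a very large HECT protein and one of the hosts for which the study designed primers, gave 20 reads in Sham, 525 CPM (321 to 810.3), and 44 in LPS, 838 CPM (609 to 1125). Its ratio of 1.60 had an interval of 0.922 to 2.86. The study also checked its candidate circRNAs by sequencing and qRT-PCR. Which Herc1 junction its primers amplify was not determined here. Nedd4, the ligase that binds PY motifs of membrane proteins, was at 918 CPM (639.7 to 1277) and 724 CPM (512 to 993), or 35 and 38 reads, with a ratio of 0.788 (0.485 to 1.28). Nedd4l, its relative that lowers the epithelial sodium channel at the surface, had 27 and 22 reads and a ratio of 0.591 (0.321 to 1.08). Neither Nedd4 relative passed 2-fold.

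Other HECT hosts are given by their reads only. Hace1 had 26 reads in Sham and 20 in LPS, Wwp2 had 13 and 21, and Trip12, which limits the spread of ubiquitin at damaged chromatin, had 6 and 19. Ube3d had 14 reads and Herc6, whose mouse counterpart attaches the ubiquitin-like ISG15, had 9 reads, both in LPS only. Itch, Smurf2, Herc2, Herc4, Ube3b and Ube3c each had fewer than 10 reads over both libraries.

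RING ligases had more circRNA in the LPS lung. Their 32 hosts had 263 reads in Sham, 0.690% of the library (0.609 to 0.778), and 560 reads in LPS, 1.07% (0.980 to 1.16), a ratio of 1.55 (1.33 to 1.80). The log2 ratio was 0.63, 1.09 and 0.18 on the 3 scales. By host, 13 were called higher and 8 lower, where the shares over all hosts were 30.8% and 38.2%. Among the 14 hosts with at least 10 reads, 6 were higher and 2 lower, where the shares were 24.5% and 26.8%. The class sum leaned on Rnf169. Without it the ratio was 1.18 (0.990 to 1.40), and the log2 ratio of 0.24 turned to -0.21 when shared circRNAs of 50 or more reads were centred.

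Rnf169 binds ubiquitinated chromatin at DNA double-strand breaks and limits the recruitment of repair factors there. It was at 1338 CPM (997 to 1759) in Sham, from 51 reads, and at 4114 CPM (3584 to 4699) in LPS, from 216 reads. The ratio was 3.07 (2.26 to 4.26). All 51 Sham reads lay in 1 circRNA, on chromosome 1 between 164931730 and 164947123, which had 155 reads in LPS and a ratio of 2.21 (1.60 to 3.09). A further 3 circRNAs were listed in LPS only. The junction between 164945808 and 164947123 had 33 reads there, at least 5.05-fold higher, and the one between 164947050 and 164958663 had 22 reads, at least 3.37-fold higher. The table lists 21 names for each of these latter junctions, most of them small RNA families. With such junctions left out, the log2 change of Rnf169 was 1.19 in place of 1.61.

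Rnf13, a RING ligase in the membrane of endosomes and lysosomes, had no listed circRNA in Sham and 3 in LPS. Its value in LPS was 990.4 CPM (739.8 to 1299), from 52 reads, and it was at least 4.87-fold higher than the Sham library allows for 3 absent junctions. Its main circRNA, on chromosome 2 between 148003674 and 148009588, had 42 of these reads and was at least 6.43-fold higher. The other junctions had 8 and 2 reads. Rnf13 was the host with the most reads among those listed in 1 library only.

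Rnf10 was at 78.7 CPM (16.2 to 230.0) in Sham, from 3 reads, and at 438 CPM (278 to 657) in LPS, from 23 reads, a ratio of 5.57 (1.68 to 29.0). Of the LPS reads, 21 came from a circRNA spanning 159 nt of the genome on chromosome 12 between 47136237 and 47136395. It was absent in Sham and at least 3.21-fold higher in LPS. Without it, Rnf10 had 3 reads in Sham and 2 in LPS. Rnf215 was listed in LPS only with 17 reads, 324 CPM (189 to 518), at least 2.60-fold higher. Rnf123 was listed in Sham only with 6 reads, 157 CPM (57.8 to 343), which by the limit is at least 1.74-fold lower in LPS. Its interval in Sham reaches below the 90.4 CPM that absence allows in LPS, so a lower value is not assured. Taken as a family, the 18 Rnf hosts had 112 reads in Sham and 369 in LPS, a ratio of 2.39 (1.93 to 2.98). Of the 18, 9 were called higher and 4 lower, beside 30.8% and 38.2% over all hosts. Among the 7 with at least 10 reads, 5 were higher and none lower, where the shares were 24.5% and 26.8%. Without Rnf169 the ratio was 1.82 (1.34 to 2.49), and without Rnf169 and Rnf13 it was 1.20 (0.866 to 1.68).

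Cbl, which ubiquitinates activated receptor tyrosine kinases, gave 7 reads in Sham, 184 CPM (73.8 to 378), and 30 in LPS, 571 CPM (386 to 816). All came from 1 circRNA spanning 248 nt of the genome. The ratio was 3.11 (1.34 to 8.39). Of its relatives, Cblb had 4 and 5 reads, and Cblc had 3 in Sham and none in LPS. Pja2, which degrades regulatory subunits of protein kinase A, had the most reads of the RING hosts called lower. It gave 21 reads in Sham, 551 CPM (341 to 842), and 5 in LPS, 95.2 CPM (30.9 to 222), and was 5.79-fold lower (2.12 to 19.6).

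For Ubr1 and Mib1 the interval of the ratio included no change. Ubr1, which recognises destabilising N-terminal residues, gave 52 reads in Sham, 1364 CPM (1019 to 1789), and 68 in LPS, 1295 CPM (1006 to 1642), with a ratio of 0.949 (0.652 to 1.39). Mib1, which ubiquitinates Notch ligands, was at 446 CPM (259.9 to 714) and 438 CPM (278 to 657), from 17 and 23 reads, with a ratio of 0.982 (0.502 to 1.96). Trim37 had 16 and 19 reads and Trim5 had 12 and 20. Ubr4 was listed in Sham only, with 6 reads, and Ubr3 in LPS only, also with 6. The limit for Ubr4, at least 1.31-fold lower in LPS, leaves out the counting error of its 6 reads, so a lower value is not assured. Rnf14 had 27 and 19 reads, a ratio of 0.511 (0.268 to 0.953). Rnf31, the catalytic subunit of the complex that builds linear ubiquitin chains in inflammatory signalling, had 4 reads in LPS and none in Sham, too few for a comparison.

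**Figure D3:**
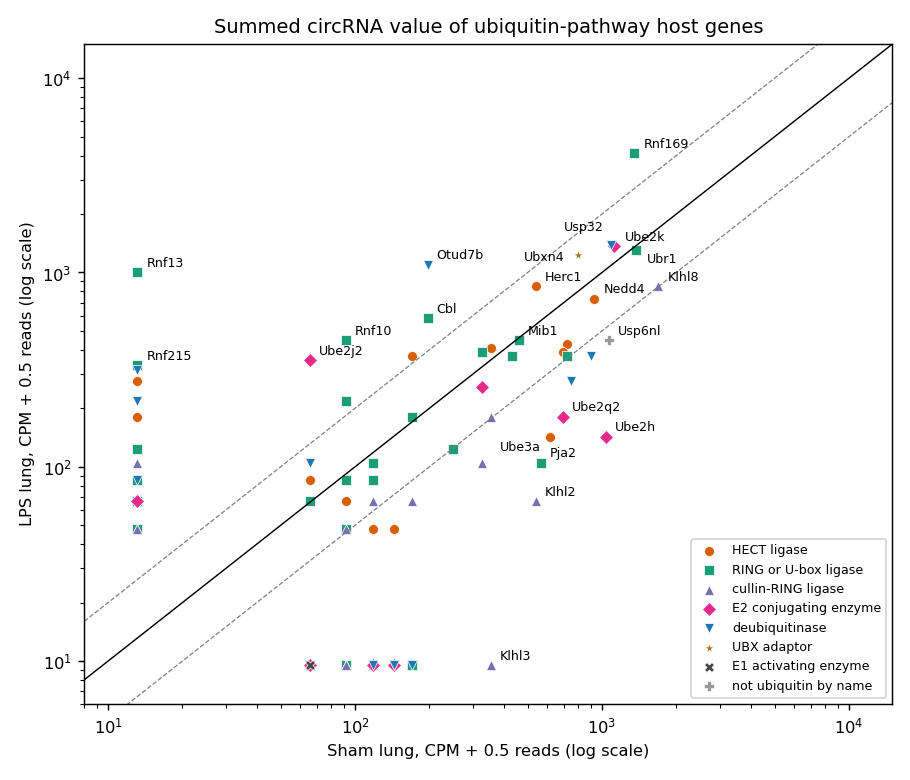
Summed circRNA value of 86 of the 88 host genes in the Sham lung (x axis) and the LPS lung (y axis), CPM after adding 0.5 reads, on log axes, with 1 point per gene shaped by class. The solid line marks equal values and the dashed lines 2-fold, and the columns of points at the left and bottom edges are genes listed in 1 library only.

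Hosts of the cullin-RING class, adaptors and the scaffold Cul4a, had less circRNA in the LPS lung. The 15 hosts had 148 reads in Sham, 0.388% of the library, and 78 in LPS, 0.149% (0.117 to 0.185), a ratio of 0.383 (0.287 to 0.507). The log2 ratio was -1.39, and -0.92 and -1.83 on the other scales. By host, 3 were called higher and 8 lower, against 30.8% and 38.2% of all hosts. Of the 5 with at least 10 reads, none was higher and 3 were lower, against 24.5% and 26.8%. Both of its large families were lower. The 6 Klhl hosts had 103 and 51 reads, a ratio of 0.359 (0.252 to 0.507), and the 8 Fbx hosts had 45 and 25 reads, a ratio of 0.403 (0.237 to 0.672).

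Klhl8, a Kelch-like adaptor of the Cul3 ligase, held the most reads of the class. Its circRNA on chromosome 14 between 7186515 and 7190518 gave 64 reads in Sham, 1679 CPM (1293 to 2144), and 44 in LPS, 838 CPM (609 to 1125). The ratio was 0.499 (0.332 to 0.744), and with 0.5 reads added the change was just short of a call. Klhl2 gave 20 reads in Sham, 525 CPM (321 to 810.3), and 3 in LPS, 57.1 CPM (11.8 to 167), and was 9.18-fold lower (2.72 to 48.3). Klhl3 had 13 reads in 3 circRNAs in Sham, 341 CPM (182 to 583), and was listed at 0 in LPS, at least 2.31-fold lower. Klhl2 and Klhl3 are adaptors that target the WNK kinases, which control salt transport. Without Klhl8 the class ratio was 0.294 (0.191 to 0.442).

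The F-box hosts were few in reads. Fbxo34 had 12 reads in Sham and 5 in LPS, a ratio of 0.302 (0.0835 to 0.922). Fbxl13 had 13 and 9 reads, a ratio of 0.503 (0.190 to 1.27). Fbxw7, which marks Myc, cyclin E and Notch for degradation, had 6 and 3. Fbxo25, with 5 reads, was listed in LPS only, and Fbxl5, which senses iron, had 4 reads in Sham only. Fbxo8, Fbxo9, Fbxw8, Klhl5, Klhl22, Klhl24 and Cul4a had 2 to 7 reads over both libraries.

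Deubiquitinase families stood on different sides on the CPM scale. As a class the 12 hosts had 132 reads in Sham and 198 in LPS, a ratio of 1.09 (0.869 to 1.37), with a log2 ratio of 0.12, 0.58 and -0.32 on the 3 scales. The OTU family was higher in LPS, and its 3 hosts had 7 and 77 reads, a ratio of 7.98 (3.70 to 20.5). Otud7b alone held all 7 Sham reads and 57 of the LPS reads. All 3 hosts were called higher, beside 30.8% over all hosts. The call of Otud4 rests on 4 reads in LPS, 76.2 CPM, which is below the 124 CPM that absence allows in Sham. The Usp family was on the other side, with 125 and 121 reads over 9 hosts, a ratio of 0.703 (0.543 to 0.910). Its log2 ratio was -0.51, -0.05 and -0.95 on the 3 scales, so it was near no change on 1 of them. In this family 1 host was higher and 6 lower, beside 30.8% and 38.2% over all hosts. Of the 6 lower hosts, 4 were listed in Sham only, with few reads. Without Usp32 the Usp ratio was 0.423 (0.291 to 0.609).

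Otud7b, which removes ubiquitin chains and restrains NF-kB signalling, gave 7 reads in Sham, 184 CPM (73.8 to 378), and 57 in LPS, 1086 CPM (822 to 1406). The ratio was 5.91 (2.69 to 15.4). Its main circRNA, spanning 857 nt of the genome on chromosome 2 between 198284002 and 198284858, had 7 and 50 reads. The ratio of this circRNA was 5.18 (2.34 to 13.6). A second one that shared its end had 7 reads in LPS only. Otud6b was listed in LPS only with 16 reads, 305 CPM (174 to 495), at least 2.45-fold higher, and Otud4 in LPS only with 4 reads. Without Otud7b the class ratio was 0.819 (0.639 to 1.05).

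Usp32, a membrane-associated protease that acts on Rab7, had the most reads of the class and the most circRNAs of any member, 5. It gave 41 reads in Sham, 1076 CPM (772 to 1459), and 72 in LPS, 1371 CPM (1073 to 1727), with a ratio of 1.27 (0.857 to 1.92). Usp7, which stabilises p53 and its ligase Mdm2, gave 34 reads in Sham, 892 CPM (618 to 1246), and 19 in LPS, 362 CPM (218 to 565), and was 2.47-fold lower (1.37 to 4.58). Usp25 had 28 and 14 reads and was 2.76-fold lower (1.40 to 5.66), with 16 and 11 reads for one circRNA and 12 and 3 for the other. Usp3, a histone deubiquitinase, had 11 reads in LPS only. Usp9x, Usp39, Usp54 and Usp13 were listed in Sham only, with 4 to 6 reads each.

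The last members are not enzymes of the mark. Ubxn4, an adaptor of the VCP segregase in the endoplasmic reticulum, gave 30 reads in Sham, 787 CPM (531 to 1124), and 64 in LPS, 1219 CPM (939 to 1556), with a ratio of 1.55 (0.989 to 2.48). Usp6nl matched the symbols by its letters only, since it encodes a GTPase-activating protein for Rab proteins. It gave 40 reads in Sham, 1049.5 CPM (749.9 to 1429), and 23 in LPS, 438 CPM (278 to 657), 2.40-fold lower (1.40 to 4.19). Without Usp6nl, the counts of member hosts were 26 higher and 33 lower.

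**Figure D4:**
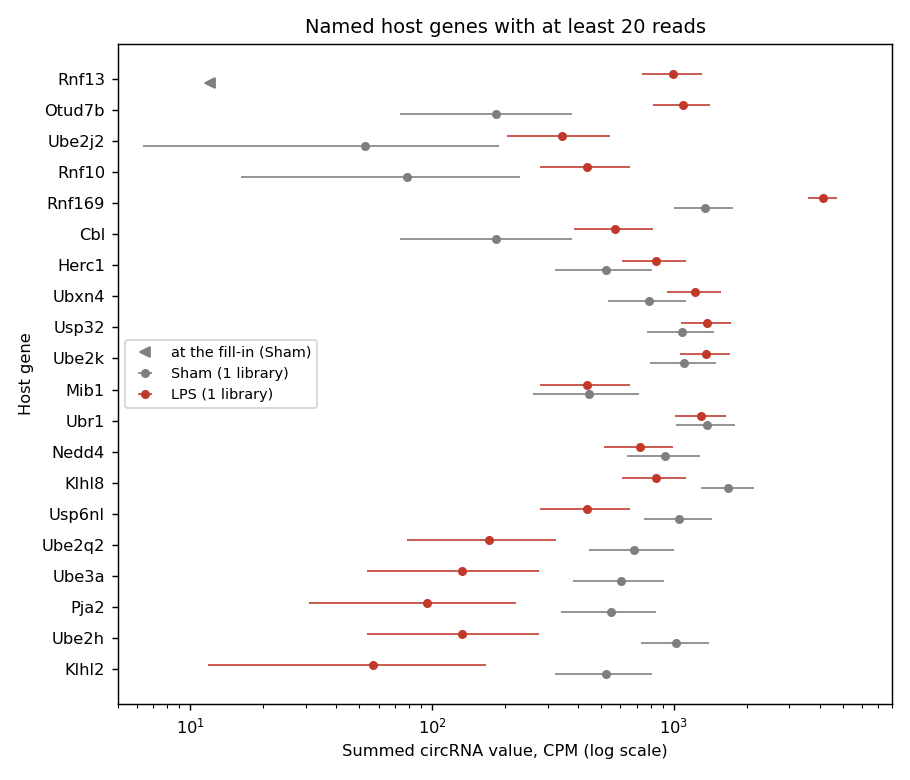
Summed circRNA value in CPM (x axis, log scale) of 20 host genes with at least 20 reads, with exact 95% intervals for counting error in the 1 Sham and the 1 LPS library. The intervals of the libraries stand apart, for example, for Rnf169, Otud7b, Ube2h, Klhl2 and Pja2, and overlap for Usp32, Ube2k, Mib1, Ubr1 and Nedd4, and the left-pointing marker is the Sham library for Rnf13, which is at the fill-in value.

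Many hosts gave more than 1 circRNA, and these did not always differ the same way. Of the 88 hosts, 51 (58.0%) had 1 circRNA, against 63.1% of all hosts, and 37 had several. In 12 of these 37 (32.4%), 1 circRNA was called higher and another lower, against 413 of all 896 hosts with several circRNAs (46.1%). Most of those junctions had few reads. Of the 12 hosts with at least 2 circRNAs of 10 or more reads, 1 (8.33%) had calls both ways, against 22.6% of all 234 such hosts, and 4 had changes of both signs. Where the leading circRNA of each library had at least 10 reads there, it differed between the libraries in 2 hosts, Herc1 and Mib1.

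Mib1 was the host called both ways. Its circRNA on chromosome 18 between 2005294 and 2013322 had 13 reads in Sham and 6 in LPS, a ratio of 0.335 (0.104 to 0.945). The one between 2038036 and 2047808 had 4 reads in Sham and 17 in LPS, a ratio of 3.08 (1.01 to 12.6). The host's sum, with a ratio near 1, thus covered opposite values at the single junctions.

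In Herc1 the libraries differed at another junction than the main Sham one. Its circRNA on chromosome 8 between 72138878 and 72148728 had 14 and 18 reads, a ratio of 0.933 (0.439 to 2.03). The circRNA between 72065616 and 72067595, a genomic span of 1980 nt, was listed at 0 in Sham. It had 26 reads in LPS, 495 CPM (323 to 725), at least 3.98-fold higher. A circRNA that starts at the same base and spans 195 nt of the genome had 2 reads in Sham and none in LPS.

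Usp32 and Ube2k also had circRNAs of both signs. The Usp32 circRNA on chromosome 10 between 72369079 and 72369874 had 22 and 54 reads, a ratio of 1.78 (1.07 to 3.07). The one that begins at the same base and ends at 72371838 had 14 and 13 reads, a ratio of 0.674 (0.292 to 1.55). For Ube2k, the circRNA on chromosome 14 between 44305779 and 44323368 had 42 and 55 reads, a ratio of 0.951 (0.625 to 1.46). The longer one from 44296202 to the same end had 13 reads in LPS only, at least 1.99-fold higher. The higher Ube2k sum in LPS came from this longer form and another circRNA of 3 reads, not from the main one.

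Nedd4, Nedd4l and Hace1 each gave several circRNAs with unlike values. The main Nedd4 circRNA on chromosome 8 between 79330088 and 79347376 had 25 and 38 reads, a ratio of 1.10 (0.649 to 1.91). A further 3 with 3, 3 and 4 reads were listed in Sham only, too few for a comparison. In Nedd4l, the circRNAs on chromosome 18 that end at 60578301 differed. The one from 60575938 had 14 and 18 reads, whereas the longer one from 60572935 had 13 and 4, a ratio of 0.223 (0.0531 to 0.723). In Hace1, 4 circRNAs used 2 starts and 2 ends. The form from 50659751 to 50687868 on chromosome 20 had 14 and 18 reads, and the one from 50659751 to 50699734 had 2 and 2. The forms from 50676394 had 7 and 3 reads in Sham and none in LPS. The Sham intervals of these forms reach below the 90.4 CPM that absence allows in LPS, so a lower value is not assured.

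**Figure D5:**
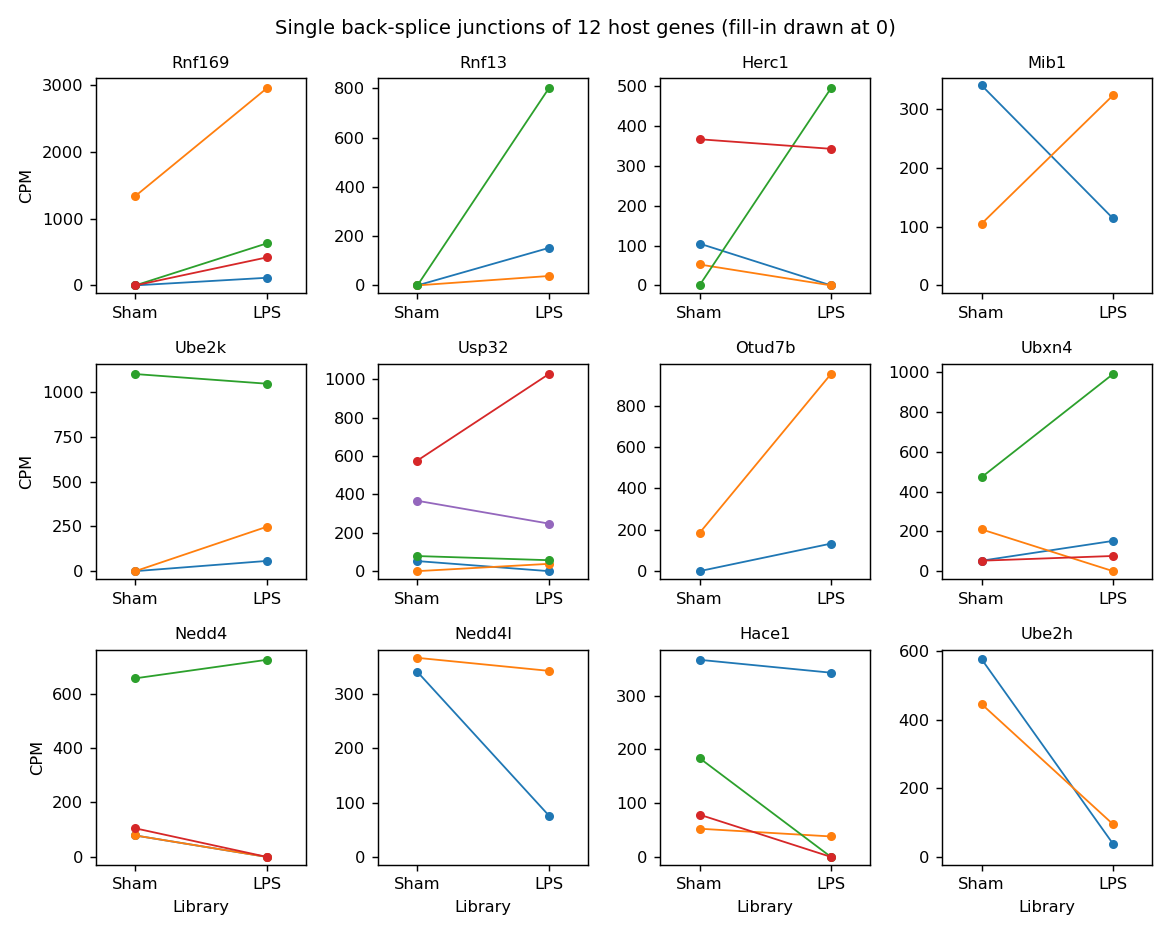
Value in CPM (y axis) of each back-splice junction of 12 host genes in the Sham and the LPS library, with 1 line per circRNA, 1 library per point and the fill-in drawn at 0. The highest circRNA differs between the libraries in Mib1, Herc1 and Ube2h (in LPS, Ube2h has fewer than 10 reads), whereas in Rnf169, Rnf13 and Otud7b all lines lead upwards.

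Ubxn4 held a pair of circRNAs whose starts lie 3 nt apart and whose ends are the same. The junction from 44973524 to 44975133 on chromosome 13 had 18 and 52 reads, and the one from 44973521 had 8 reads in Sham and none in LPS. Summed, the pair had 26 and 52 reads, a ratio of 1.45 (0.890 to 2.42). Whether the pair is 1 circRNA placed differently was not tested.

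In their form, the members were much like other circRNAs of the table. Of the 148, 59 (39.9%, 31.9 to 48.2) were listed in both libraries, against 37.0% (35.6 to 38.4) of the 4586 others, 45 (30.4%) in LPS only, against 30.5%, and 44 (29.7%) in Sham only, against 32.5%. The distance between junction ends had a median of 4173 nt, against 4411 nt, and ranged from 145 nt to 75341 nt. This is genomic distance and includes introns. An end was shared with another circRNA in 57 (38.5%), against 37.4%. Of the 148, 96 (64.9%) had fewer than 10 reads, against 66.7%. Reads were concentrated in a few circRNAs, and the 10 with the most reads held 49.6% of the members' reads in Sham and 54.7% in LPS. For 11 circRNAs the table also lists small RNA names, so the host assignment of these is less certain. Among them are the only circRNAs of Usp7 and Fbxo34 and the most-read one of Trim5. With such circRNAs left out, the log2 ratio of the deubiquitinases was 0.41 in place of 0.12.

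The members were also set against the gene annotation. Of 447 protein-coding genes with matching symbols in the RefSeq table for GRCr8, 87 (19.5%) were listed, against 2321 of 23154 protein-coding genes in all. The share was 70.8% for HECT ligases, 17 of 24 genes, and 13.5% for the cullin-RING class, 15 of 111. Between these lay the E2 enzymes, 9 of 45, the deubiquitinases at 18.8% and the RING ligases at 17.5%. Below them were the UBX adaptors, 1 of 9, and the E1 enzymes, 1 of 10. All 88 hosts were found in that table on the chromosome the deposited file gives, Rnf219 under the symbol Obi1. Gene length and expression were not taken into account in these shares, and they are given without a test.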

How the data were processed

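Lung circRNA of 1 Sham and 1 LPS library was analysed. The values deposited by the authors for each circRNA are headed TPM and were read as CPM of junction reads, since they fell on whole reads in 100% of listed cases (tolerance 0.05 reads). Per the labels, ribosomal RNA was removed and linear RNA digested with RNase R before a strand-marked library was made, whereas the methods of the study describe another cDNA kit. The submitters' processing notes name CASAVA 1.8, BWA and rn6, and coordinates are given as deposited. The circRNA caller is not given in the sources used here.

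Values were summed per host gene. Log2 changes used 0.5 added reads and a 2-fold threshold, without a test. Described hosts were the 8 with the most reads, the 5 with the largest changes each way (at least 20 reads), the 3 most-read hosts of 1 library only each way, Herc1, the top host of each class and hosts whose leading junction differed. Results of 2 host genes are not reported singly here, although sums and counts include them. Other hosts were added to account for the classes, after their values were seen. Members and lists were chosen with earlier results of these data known. Steps were tested on simulated data. Calculations used scipy 1.17.1, pandas 2.3.3 and numpy 2.4.6 under Python 3.11.15, with plots from matplotlib 3.10.9. Sequences and mRNA were not analysed here.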

Additional observations from a re-analysis of the deposited data

How the results depend on the processing

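No paired analysis was possible because Sham and LPS are 1 library each, and for that reason no replicate could be left out. Counts of calls depended on low values, whereas a minimum of 10 reads left the share of member hosts called higher nearly unchanged. Hosts higher in LPS numbered 26 of 88 (29.5%, against 30.8% of all hosts). Among hosts of 10 or more reads they numbered 12 of 42 (28.6%, against 24.5%). They numbered 16 with absence taken as 1 read. With the most-read junction of each host left out they also numbered 16, and only the 37 hosts with several junctions could then be called. Hosts lower numbered 34 (38.6%, against 38.2%), but 12 of 42 (28.6%, against 26.8%) with at least 10 reads and 16 without the most-read junction. CircRNAs higher numbered 54 of 148 (36.5%, against 35.7% of all), but 31 at 4-fold and 29 with absence taken as 1 read. Among those of 10 or more reads they numbered 19 of 52 (36.5%, against 29.1%). CircRNAs lower numbered 62 (41.9%, against 43.3%), but 16 of 52 (30.8%, against 29.6%) with at least 10 reads. Other pathway hosts numbered 19 higher and 24 lower of 65 (29.2% and 36.9%), and 12 higher with absence taken as 1 read. With at least 10 reads they numbered 11 and 10 of 39 (28.2% and 25.6%, against 24.5% and 26.8%).

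The scale moved every class sum, and the scale with all shared circRNAs centred leaves depth uncorrected here. With all shared circRNAs centred, log2 ratios were 0.37 for all members, -0.13 for E2 enzymes, 0.18 for HECT ligases, 1.09 for RING ligases, -0.92 for the cullin-RING class and 0.58 for deubiquitinases. With shared circRNAs of at least 50 reads centred, a scale chosen after seeing the data, they were -0.54, -1.03, -0.73, 0.18, -1.83 and -0.32. Without the most-read junction of each host they were -0.31 for all members, -0.86 for HECT, 1.65 for RING, -0.74 for deubiquitinases and -0.46 for Ubxn4. The cause was not tested.

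For the 26 described hosts, 128 alternative values kept direction and call, 8 gained and 1 lost a call (Usp6nl, -0.79 on the shared scale), and 9 reversed. Reversed values were 0.43 for Mib1, 0.12 for Nedd4 and 0.38 for Ubr1 on the shared scale, -0.16 for Ube2k and -0.10 for Usp32 on the 50-read scale, and -0.95 for Rnf10, 2.71 for Ubr1, -0.46 for Ubxn4 and -0.54 for Usp32 without the most-read junction.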

Other observations

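Genes of the wider pathway that the symbol families leave out also hosted circRNAs. Of 258 such genes listed from general knowledge, 65 were hosts, with 608 reads in Sham and 775 in LPS, a ratio of 0.925 (0.831 to 1.03). Of these, 19 (29.2%) were called higher and 24 (36.9%) lower, near the 30.8% and 38.2% of all hosts. Proteasome subunits were found on both sides. Psma7, of the catalytic core, had 13 reads in Sham and 48 in LPS, a ratio of 2.68 (1.43 to 5.39). Psmb2, also of the core, had 7 and 31 reads, a ratio of 3.21 (1.39 to 8.65), and Psmd13, of the regulatory cap, had 24 reads in LPS only, at least 3.67-fold higher. Psmd14, the deubiquitinase of the cap, had 12 and 13 reads, a ratio of 0.786 (0.331 to 1.89), and Psmd2, Psmc4, Psma2 and Psmb9 had 8, 5, 3 and 2 reads in Sham only. Psmb10 and Psmd11 had 7 reads each in LPS only. These were chosen after their values were seen.

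Other genes of this list, also chosen after their values were seen, differed both ways as well. Arih1, a RING-between-RING ligase that works with cullin complexes, had 21 and 54 reads, a ratio of 1.87 (1.11 to 3.25). Brap, a RING ligase that binds BRCA1, had 42 and 22 reads and was 2.63-fold lower. Anapc7, of the anaphase-promoting complex, had 31 and 17 reads and was 2.51-fold lower. Brca1, whose product acts in DNA repair, had 12 and 2 reads, a ratio of 0.121 (0.0132 to 0.543). Dcun1d4, which promotes the attachment of NEDD8 to cullins, held the most reads of this list, 77 and 98, with a ratio of 0.924 (0.678 to 1.26).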
